A study of Mus musculus with 9 samples.

Results

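Genes that help proteins fold were followed through a single-cell RNA sequencing survey of the mouse brain. They are 33 of the 18634 genes in the table, chosen as a list of names with earlier results of these data known. They hold 225737 of the table's 31468255 unique molecular identifiers (UMIs, each standing for 1 captured transcript), or 0.717%. By system they are 8 genes of the HSP70 machinery (Hspa1a, Hspa1b, Hspa8, Hsph1, Dnaja1, Dnajb1, Dnajb6, Bag3), 6 of the HSP90 machinery (Hsp90aa1, Hsp90ab1, Fkbp4, Chordc1, Ahsa1, Stip1), 2 small heat shock proteins (Hspb1, Cryab), the mitochondrial chaperonin pair (Hspd1, Hspe1), 6 subunits of the cytosolic chaperonin TRiC (Cct2, Cct3, Cct4, Cct5, Cct7, Cct8), 8 folding genes of the endoplasmic reticulum (ER; Hspa5, Hsp90b1, Calr, Canx, Pdia3, Pdia4, Pdia6, Ppib) and the cytosolic cyclophilin Ppia.

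The tissue was brainstem, cortex and hypothalamus of C57BL/6 mice (substrain J in the study's methods) aged 9 to 11 weeks, which slept freely (normal sleep, NS), were kept awake for 12 h (sleep deprivation, SD) or were allowed to recover after those 12 h (recovery sleep, RS). The labels give the recovery time as 12 h in one place and 24 h in another. All tissue was taken at zeitgeber time 12. For each of the 9 combinations of region and sleep group the tissue of 3 mice was pooled into 1 library, so no combination has a replicate. Cells were freed with papain and passed over myelin removal beads before capture, and every level below is that of cells which had gone through this handling.

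The table names its libraries by a code that the labels do not explain. Only library 7 could be assigned, as brainstem of the NS group, because 1999 of its barcodes stand, with region, sleep group and cell type, in the copy of the study's cell list used here, against 5 to 13 of the listed barcodes in each other library. That copy was cut short, so 1999 is where it ends and not the extent of the study's list. The other 8 libraries are numbered by the order of their codes, their region and sleep group are not given here, and no comparison of sleep groups was made. The 9 libraries held 2575 to 3916 cells and 1522766 to 5488950 UMIs, with a median of 402 to 1055 UMIs per cell. Libraries 4, 5 and 6 stood apart, with 30.3%, 30.0% and 37.9% of their UMIs from pituitary hormone genes against at most 0.00959% in the other 6. Hemoglobin genes took 6.79%, 3.22% and 4.83% of the UMIs of libraries 7, 8 and 9 and at most 0.824% elsewhere. Between 96 and 143 barcodes of each library also occurred in another.

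Chaperones bind proteins that are not yet folded, or that have lost their fold, and many release them in cycles driven by ATP. HSP70 proteins take up short exposed stretches with the help of J-domain partners, HSP90 proteins act late on signalling proteins and other clients, and the ring-shaped chaperonins enclose a whole chain, with actin and tubulin as the best known clients of TRiC. In the ER, Hspa5 (BiP), the lectins calreticulin and calnexin and the disulfide isomerases fold secreted and membrane proteins. Heat and other stress raise a subset of these genes through heat shock factor, which binds repeats of GAA and TTC. An ER full of unfolded protein raises another subset through a separate promoter element. In sleep research Hspa5 and other ER chaperones are known as genes that change with prolonged waking.

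The promoter sequences show which members carry these elements as letters. Sequences for 28 of the 33 members, 36 starts in all, were found in the RefSeq table (GRCm38.p6), and the 250 bases before each start were searched on both strands. Hspa8, Hsp90aa1, Hsp90ab1, Cryab and Cct4 were not searched. The heat shock element searched was GAA, 2 free bases, TTC, 2 free bases and GAA, and this was found in 153 of 32851 promoters of all genes (0.466%) and in 3 members. The ER stress element searched was CCAAT, 9 free bases and CCACG, found in 37 of 32851 promoters (0.113%) and in 5 members. A match is no more than these letters in this window, and no match says nothing about the factor.

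The mitochondrial chaperonin genes Hspd1 and Hspe1 lie head to head on chromosome 1 and share 1 stretch, so that the same heat shock repeat was found for both. It is shown on the strand of Hspe1 (chr1:55088039-55088096, plus strand, 109 to 52 bases before the start), with 2 overlapping matches in capitals, because Hspd1 and Hspe1 were the 2 heat-inducible members with a match among those searched. Dnajb6 (chr5:29735832-29735884, plus strand) held the other match.
Hspe1: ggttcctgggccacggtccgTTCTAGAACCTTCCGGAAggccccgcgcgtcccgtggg
Dnajb6: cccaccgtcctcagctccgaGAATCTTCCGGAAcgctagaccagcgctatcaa

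All 5 members with the ER stress element were among the 8 ER folding genes, and the matches are shown because 4 of these 5 genes were counted as higher in one group of cells of library 7, those listed as glutamatergic neurons. The element is in capitals, on the strand of each gene, at chr2:34772005-34772063 (plus strand) for Hspa5, chr8:84847055-84847113 (minus strand) for Calr, chr11:50325780-50325838 (minus strand) for Canx, chr12:17266471-17266529 (plus strand) for Pdia6 and chr10:86705513-86705676 (minus strand) for Hsp90b1, which has 2 copies.
Hspa5: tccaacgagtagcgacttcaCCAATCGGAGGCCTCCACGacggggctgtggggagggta
Calr: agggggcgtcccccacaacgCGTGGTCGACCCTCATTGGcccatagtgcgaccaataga
Canx: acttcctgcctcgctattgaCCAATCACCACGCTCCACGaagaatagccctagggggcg
Pdia6: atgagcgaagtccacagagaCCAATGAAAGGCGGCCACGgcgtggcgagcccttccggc
Hsp90b1: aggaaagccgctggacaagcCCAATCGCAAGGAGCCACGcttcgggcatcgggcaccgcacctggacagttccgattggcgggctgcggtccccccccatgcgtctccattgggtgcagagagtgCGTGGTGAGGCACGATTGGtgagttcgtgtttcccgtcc

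The 33 genes together took 0.718%, 0.774%, 0.835%, 0.623%, 0.652%, 0.632%, 0.713%, 0.696% and 0.826% of all UMIs in libraries 1 to 9. Library 3 was highest and library 4 lowest, 1.34 times apart. In such sums over a library, fewer cells of a type and less RNA per cell cannot be told apart. In libraries 4, 5 and 6 the hormone transcripts fill the total, and with mitochondrial, hemoglobin and pituitary hormone genes left out of it the shares of libraries 4 to 6 became 0.954%, 1.00% and 1.06%. Library 6 was then highest and library 1 lowest, at 0.784%. This change of total moves every gene by the same amount within a library, between 0.11 and 0.27 on the log2 scale in libraries 1 to 3 and 7 to 9 and by 0.62, 0.62 and 0.75 in libraries 4, 5 and 6. Levels below are given in CPM, relative to all UMIs of the library or cell group (10 CPM is 1 UMI in 100000), and where the other total changes the picture its value stands beside them.

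**Figure D1:**
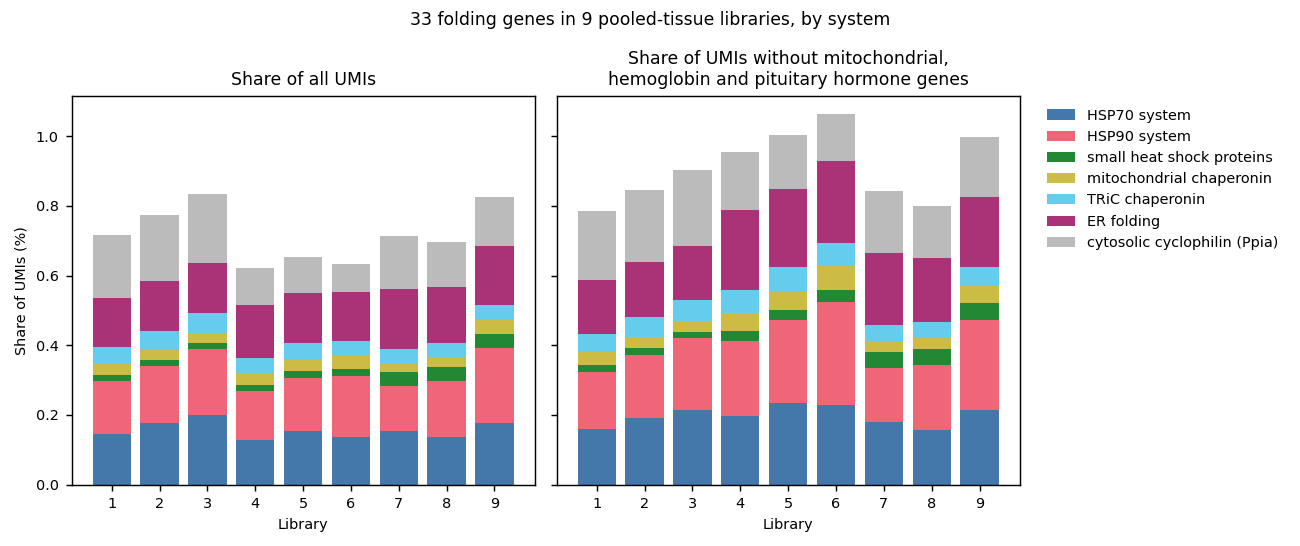
Stacked bars give the share of UMIs (%, y axis) of the 33 folding genes by system in libraries 1 to 9 (x axis), of all UMIs on the left and without mitochondrial, hemoglobin and pituitary hormone genes on the right. Library 3 is highest on the left at 0.835% and library 6 on the right at 1.06%.

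ER folding genes summed to between 1401 CPM in library 6 and 1733 CPM in library 7, a ratio of 1.24, or 1.52 on the other total. The HSP70 machinery ranged from 1282 to 1991 CPM and the HSP90 machinery from 1294 to 2141 CPM. The TRiC subunits summed to between 394 and 557 CPM. The small heat shock proteins showed the widest spread of any system of more than 1 gene, with 174 to 214 CPM in libraries 1 to 6 and 397, 404 and 401 CPM in libraries 7, 8 and 9. These last 3 were also the libraries with 10.9% to 11.7% of vascular smooth muscle-like cells, against 0.0766% to 4.66% in libraries 1 to 6. Endothelial-like cells were at 21.0%, 15.6% and 11.4% in them, against 0.434% to 7.03%. Pericyte-like cells were at 6.03%, 5.94% and 1.94%, against 0.172% to 1.24%. The part of each class in this spread was not tested. On the other total libraries 4, 5 and 6 stood at 286, 281 and 361 CPM, between the 188 to 205 CPM of libraries 1 to 3 and the 463 to 484 CPM of libraries 7 to 9. In the cells of libraries 4, 5 and 6 other than pituitary endocrine-like ones they stood at 380, 286 and 531 CPM of all UMIs, so library 6, with the fewest smooth muscle-like cells, was then highest.

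Single genes were compared by the ratio of the highest to the lowest library after adding 10 CPM to both. Of the 2953 genes with a mean of at least 50 CPM, 65.3% differed by at least 2 times. The 29 members that passed this minimum held 8 such genes (Hsph1, Dnajb1, Hsp90aa1, Hspb1, Cryab, Pdia4, Ppib and Ppia), and their median ratio was 1.77 against 2.49 over all genes tested. On the other total it was 12 of 30 members against 61.3% of all genes. Hspa1a, Hspa1b, Bag3 and Chordc1 were under the minimum and are described without being counted. The order of libraries depended on the pituitary endocrine-like cells, which were 55.1%, 35.2% and 73.3% of the cells of libraries 4, 5 and 6. Leaving them out changed the highest or the lowest library of 26 of the 33 members, and 19 of these then had their highest level in library 4, 5 or 6.

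Within the HSP70 machinery, Hspa8, the constitutive cytosolic HSP70 and the most abundant member of this system, was at 830, 1040, 1168, 765, 849, 754, 764, 687 and 869 CPM in libraries 1 to 9, highest in library 3 and lowest in library 8. Its highest library on the other total was 5, at 1308 CPM. The stress-inducible Hspa1a (chr17:34969190-34972156) stood at 16.4, 10.9, 15.5, 30.3, 75.9, 43.2, 101, 26.7 and 48.6 CPM in libraries 1 to 9. Library 7 was highest and libraries 1 to 3 lowest, and the ratio of library 7 to library 2 was 5.31 with 10 CPM added and 9.28 with nothing added (95% interval 6.00 to 15.1, for counting error only, as are all intervals here). On the other total library 5 was at 117 CPM and library 7 at 119 CPM. With ependymal-like cells also left out library 5 was highest, at 128 CPM against 121 CPM in library 7. Without endocrine-like cells library 5 fell to 51.5 CPM of all UMIs. Hspa1b (chr17:34956436-34959238), the close copy of Hspa1a, stood at 6.57, 5.17, 12.0, 7.31, 9.43, 19.1, 38.2, 12.8 and 48.0 CPM, so that library 9 was highest and library 2 again lowest. Without ependymal-like cells Hspa1b fell to 25.8 CPM in library 9, and library 7 was highest, at 36.0 CPM.

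Summed immediate early genes (Fos, Jun, Egr1 and 10 others, which answer to activity and to tissue dissociation) were at 1493, 1560, 1435, 2533, 3936, 3329, 1946, 1838 and 1553 CPM in the same order. Their highest library was 5 on both totals, not 7 or 9, which were highest for Hspa1a and Hspa1b on all UMIs. On the other total Hspa1a in library 5 stood near its level in library 7. The part of the immediate early genes in the levels of Hspa1a and Hspa1b was not tested.

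Dnajb1, the heat-inducible J-domain partner of HSP70, was at 58.4, 62.6, 79.8, 49.2, 128, 74.5, 50.6, 34.3 and 58.2 CPM. Library 5 alone exceeded 100 CPM, and on the other total library 6 did too, at 125 CPM. The endocrine-like cells of library 5 carried it at 200 CPM (174 to 229) and its other cells at 58.8 CPM, so that library 6 was highest without them, at 97.8 CPM. Hsph1 (HSP110), which exchanges the nucleotide of HSP70, was at 86.0, 111, 153, 60.8, 80.1, 97.3, 48.4, 66.5 and 107 CPM. It was highest in library 3 and lowest in library 7, and without ependymal-like cells it ranged from 24.8 to 153 CPM. Without endocrine-like cells library 6 was highest, at 171 CPM against the 153 CPM of library 3. Dnaja1, Dnajb6 and Bag3, the last a link between HSP70 and autophagy at 5.69 to 19.1 CPM, stayed within a ratio of 2 with 10 CPM added. Bag3 reached 2.19 on the other total, and with nothing added its ratio on all UMIs was 3.35 (1.79 to 6.95).

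In the HSP90 machinery the inducible Hsp90aa1 was at 511, 574, 622, 457, 606, 672, 501, 770 and 1084 CPM. Library 9 was highest, and it was also the library with the most ependymal-like cells (16.4% of its cells). Without those cells Hsp90aa1 stood at 307, 370, 322, 284, 256 and 413 CPM in libraries 4 to 9, all below the 511 to 622 CPM of libraries 1 to 3, which held no such cells. On the other total they stood at 480, 596, 573, 339, 297 and 509 CPM against 559, 627 and 672 CPM in libraries 1 to 3, so that libraries 5 and 6 were no longer below library 1. With the endocrine-like cells left out instead, library 6 stood highest, at 1501 CPM against 1084 CPM in library 9. The constitutive Hsp90ab1, the most abundant gene of this system by its mean, was at 772, 808, 951, 711, 675, 835, 562, 617 and 784 CPM, lowest in library 7 and highest in library 3, a ratio of 1.68. On the other total library 6 was highest, at 1405 CPM, and the ratio was 2.10. The cochaperones Fkbp4, Ahsa1, Stip1 and Chordc1 stayed within a ratio of 2 with 10 CPM added, and Chordc1 reached 2.26 on the other total. With nothing added the ratio on all UMIs was 2.28 (1.57 to 3.42) for Chordc1 and 2.08 (1.74 to 2.50) for Stip1.

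The small heat shock protein Hspb1 was at 82.1, 113, 114, 141, 141, 184, 247, 256 and 243 CPM. Cryab (alpha-B crystallin) was at 97.2, 75.0, 59.9, 45.4, 41.0, 30.8, 150, 148 and 158 CPM. Both were highest in libraries 7 to 9, and Cryab was lowest in library 6. On the other total Hspb1 was instead highest in library 6, at 309 CPM against 292 to 294 CPM in libraries 7 to 9, while the order of Cryab at both ends held. With the endocrine-like cells left out Hspb1 was at 277, 208 and 446 CPM in libraries 4, 5 and 6, highest in library 6, and Cryab was lowest in library 3, at 59.9 CPM, with library 6 at 85.5 CPM. Without the vascular smooth muscle-like cells Cryab ranged from 30.6 to 105 CPM and Hspb1 from 60.5 to 212 CPM, so that both stayed beyond a ratio of 2.

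No chaperonin gene reached a ratio of 2 on all UMIs. Hspe1, the lid of the mitochondrial chamber, was at 229, 186, 199, 263, 248, 321, 176, 200 and 324 CPM, and Hspd1, its wall, ranged from 74.9 to 99.3 CPM. On the other total Hspe1 was highest in library 6, at 540 CPM, and reached a ratio of 2.58. Cct7, the most abundant TRiC subunit here, was at 133, 163, 176, 109, 112, 105, 116, 123 and 113 CPM, highest in library 3. Cct2 reached 2.04 on the other total.

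Among the ER genes, the disulfide isomerase Pdia4 was at 49.9, 43.4, 62.1, 105, 101, 126, 130, 156 and 178 CPM, low in libraries 1 to 3 and highest in library 9. Without ependymal-like cells it ranged from 43.4 to 103 CPM, and without endocrine-like cells it was highest in library 6, at 211 CPM. Ppib, the cyclophilin of the ER, was at 213, 192, 185, 108, 120, 90.7, 260, 219 and 231 CPM. It was lowest in libraries 4 to 6, and its ratio was 2.69 on all UMIs and 1.95 on the other total. Without endocrine-like cells libraries 4, 5 and 6 were at 212, 201 and 193 CPM and library 3 was lowest. Hsp90b1 (GRP94), the most abundant ER member by its mean, was at 240, 249, 226, 289, 250, 247, 303, 290 and 317 CPM, a ratio of 1.39. Library 4 was highest on the other total, at 442 CPM. Hspa5 was between 168 and 284 CPM, a ratio of 1.65, or 2.06 on the other total, on which Pdia3 also passed 2.

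Ppia (cyclophilin A), an isomerase of proline bonds and the most abundant of the 33, was at 1813, 1887, 1998, 1077, 1009, 803, 1512, 1300 and 1414 CPM. Its ratio of 2.47 on all UMIs became 1.60 without mitochondrial, hemoglobin and hormone genes, so its range was under 2 once these genes were left out of the total. Without endocrine-like cells it was at 1730, 1495 and 1416 CPM in libraries 4, 5 and 6, and library 8 was lowest.

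**Figure D2:**
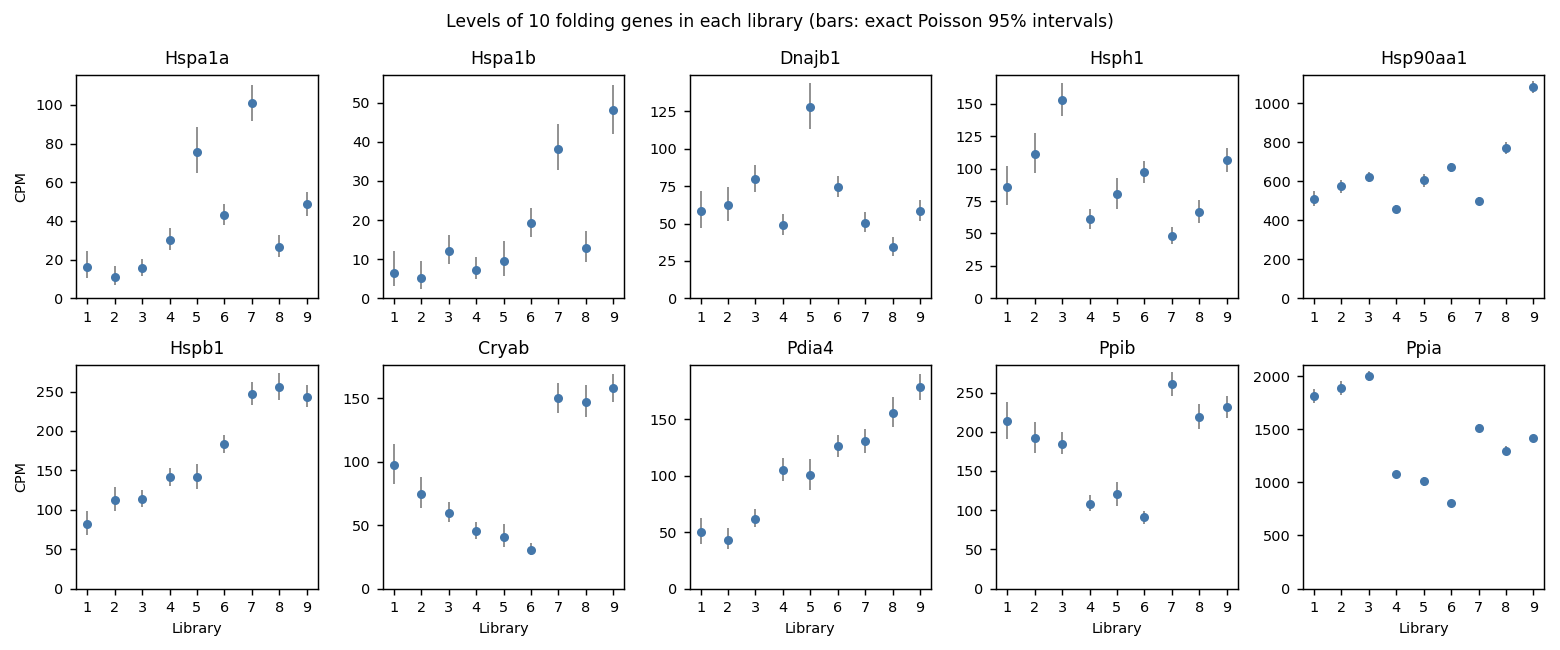
Points give the level in CPM (y axis, from 0) of 10 folding genes in libraries 1 to 9 (x axis), with exact Poisson 95% intervals as bars. Hspa1a peaks in library 7 at 101 CPM, Hspb1 and Cryab are highest in libraries 7, 8 and 9, and Ppia and Ppib are lowest in libraries 4, 5 and 6, all on the total that holds the hormone UMIs. Without mitochondrial, hemoglobin and hormone genes in it Hspb1 is highest in library 6, at 309 CPM.

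Cell types could be read in library 7, where the shortened copy of the study's list names the type of 1999 of 3731 cells. There were 8 types with at least 50 listed cells: 573 endothelial cells, 549 microglia, 230 vascular smooth muscle cells (arterial, VSMCA), 188 astrocytes, 168 pericytes, 88 ependymal cells (EPC, the ciliated lining of the ventricles), 67 macrophages and 55 cells labelled Neuron Glutamatergic. In each of the 8 every marker on its list reached a ratio of 2 or more to the remaining listed cells, after adding 10 CPM to both. The list for the last of these was one for neurons in general, which includes inhibitory genes. They carried Slc17a6, the transporter of glutamate into vesicles, at 515 CPM but also Slc32a1, the transporter of inhibitory transmitter, at 610 CPM, with Gad1 at 153 and Gad2 at 114 CPM. The markers thus do not bear out a purely glutamatergic identity, and these cells are called listed neurons. Of the cells under 50, the 43 labelled Oligodendrocyte had 1 of 6 markers higher (Cldn11) and none of Mag, Mobp and Ermn, and their leading genes were Prg4, Igfbp6 and Dapl1, so that label is not borne out.

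Ependymal cells gave the largest share of their UMIs to the 33 genes, 1.11% (1.06% to 1.16%), and astrocytes the smallest of the 8 types, 0.457%. Listed neurons were at 0.919%, endothelial cells at 0.848%, pericytes at 0.838%, microglia at 0.697%, macrophages at 0.618% and VSMCA at 0.603%. Of the 27 members with at least 50 CPM over all listed cells, 8 (29.6%) were highest in ependymal cells, which held for 15.3% of all genes at that level. For 9 of the 27 (33.3%) the intervals of the highest and the next type did not overlap (Dnaja1, Hsp90aa1, Hsp90ab1, Cryab, Hspa5, Calr, Canx, Pdia4 and Ppia), which is near the 31.1% of all genes.

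Each type was set against all other listed cells, and a gene was counted as higher at a ratio of at least 2 after adding 10 CPM to both. Of the 2841 genes with at least 50 CPM over all listed cells, this held for 6.93% in astrocytes, 8.62% in ependymal cells, 14.2% in endothelial cells, 6.86% in macrophages, 11.4% in microglia, 7.85% in listed neurons, 5.56% in pericytes and 6.12% in VSMCA. Among the 27 members that passed, 5 were higher in ependymal cells, 4 in listed neurons, 2 each in endothelial cells and microglia, 1 in VSMCA and none in astrocytes, macrophages or pericytes. In all, 14 of the 27 were counted in some type (51.9%), near the 55.3% of all genes tested, and at a ratio of 1.5 it was 22 of the 27 (81.5%) against 84.8%. Hspa1b, Hsph1, Bag3, Chordc1, Stip1 and Cct2 fell under the minimum. The median log2 ratio of the members was 0.32 in ependymal cells, where that of all genes tested was -0.24, and -0.12 against -1.03 in listed neurons. In astrocytes it was -0.75 against -0.59.

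**Figure D3:**
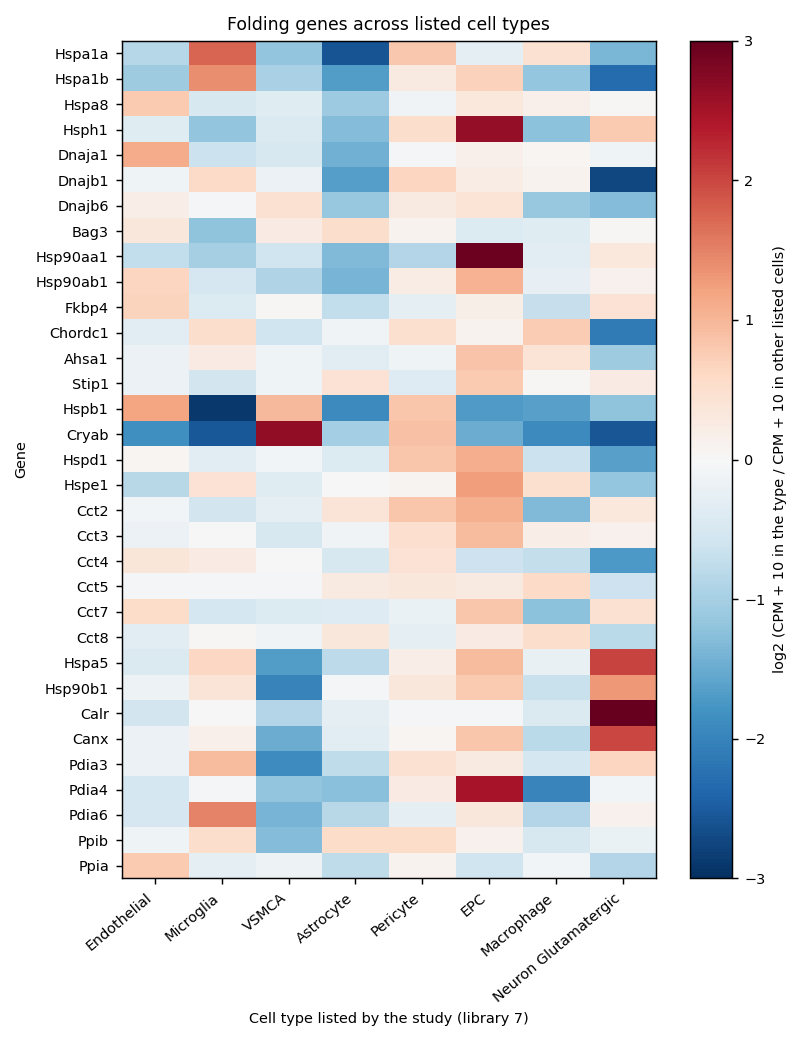
Each cell gives, for 1 of the 33 genes (rows) and 1 of the 8 listed types with at least 50 cells (columns), the log2 ratio of CPM + 10 in that type to CPM + 10 in the other listed cells of library 7, red where higher and at full colour beyond 3 either way. Hsp90aa1 and Pdia4 stand out in EPC, the ER genes Calr, Hspa5, Canx and Hsp90b1 in listed neurons, and Cryab in VSMCA.

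Ependymal cells stood out for HSP90. Hsp90aa1 was at 2248 CPM (2028 to 2484) in ependymal cells, 534 in listed neurons, 349 in macrophages, 295 in VSMCA, 290 in endothelial cells, 240 in microglia, 237 in pericytes and 176 in astrocytes. With nothing added, the ependymal level was 7.92 times that of the other listed cells (6.95 to 9.02). With every cell thinned to 500 UMIs, 65.9% of the 88 ependymal cells held a UMI of it, against 11.6% of the other cells, so the difference was also present at equal depth. Hsp90ab1 was also highest there, at 1068 CPM (919 to 1235), followed by 753 CPM (687 to 822) in endothelial cells.

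Pdia4 was at 528 CPM (425 to 649) in ependymal cells, 142 in pericytes, 118 in microglia, 114 in listed neurons, 89.4 in endothelial cells, 51.9 in VSMCA, 47.1 in astrocytes and 24.1 in macrophages. It was the one ER gene counted in ependymal cells, at 6.07 times the other listed cells with nothing added. The mitochondrial pair was counted there too. Hspe1 was at 399 CPM (310 to 506) in ependymal cells, 253 in macrophages, 229 in microglia, 189 in pericytes, 182 in astrocytes, 143 in VSMCA, 113 in endothelial cells and 76.3 in listed neurons. Its interval overlaps that of macrophages (157 to 387). Hspd1 was at 164 CPM in ependymal cells and 142 CPM in pericytes, which counting error does not separate. Hsph1, under the minimum over all listed cells, was at 217 CPM (153 to 299) in ependymal cells and at 11.8 to 76.3 CPM in the other 7 types, of which listed neurons, with 4 UMIs, overlap with it.

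Listed neurons held the highest levels of 4 ER genes in library 7, which are 4 of the 5 with the ER stress element in the sequences above. Pdia6, the other gene with that element, was counted in microglia, and a link between element and level was not tested. Calr, the soluble lectin chaperone, was at 1449 CPM (1142 to 1814) in these neurons, and in the other 7 types it lay between 101 CPM in VSMCA and 183 CPM in microglia. Hspa5 was at 991 CPM (740 to 1300) in the neurons, 464 in ependymal cells, 351 in microglia, 291 in pericytes, 217 in macrophages, 200 in endothelial cells, 147 in astrocytes and 81.1 in VSMCA. The difference from ependymal cells was beyond their intervals.

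Canx, the membrane-bound lectin, was at 839 CPM (610 to 1126) in the neurons, 370 in ependymal cells, 237 in microglia, 223 in pericytes, 197 in endothelial cells, 171 in astrocytes, 120 in macrophages and 77.9 in VSMCA. Hsp90b1 was at 744 CPM (529 to 1017) in the neurons, 511 in ependymal cells, 385 in pericytes, 378 in microglia, 300 in astrocytes, 282 in endothelial cells, 193 in macrophages and 77.9 in VSMCA, and the first 2 overlap. VSMCA were thus lowest for Calr, Hspa5 and Hsp90b1 and for Canx as well. These neurons were 55 cells with 52447 UMIs, and 26.7% of those were mitochondrial against 3.68% to 12.1% in the other 7 types. The part of that difference in these levels was not tested. Across libraries, in the classes of cells described further on, neuron-like cells led throughout for Calr but not for the other 3. Hspa5 had a median of 162 CPM in neuron-like cells against 344, 312 and 308 CPM in ependymal-, fibroblast- and microglia-like cells, and Hsp90b1 one of 330 CPM against 393 CPM in ependymal-like cells. Canx was highest in neuron-like cells in 7 of 9 libraries, and fibroblast-like cells of library 2 reached 585 CPM against at most 584 CPM in neuron-like cells.

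Among the types of library 7, microglia had the most Hspa1a. It was at 260 CPM (218 to 309) in microglia, 196 in pericytes, 157 in macrophages, 93.9 in ependymal cells, 67.8 in endothelial cells, 48.7 in VSMCA, 38.1 in listed neurons and 11.8 in astrocytes. Pericytes and macrophages overlap with microglia, and astrocytes, with 2 UMIs in 188 cells, lie clear below. Thinned to 500 UMIs, 8.67% of microglia held an Hspa1a UMI against 2.71% of the other cells and 1.08% of astrocytes. Summed immediate early genes were also highest in microglia, at 4234 CPM, and lowest in astrocytes, at 365 CPM, and their part was not tested. Pdia6, an ER disulfide isomerase, was at 288 CPM (243 to 338) in microglia, 176 in ependymal cells, 153 in listed neurons, 115 in pericytes, 105 in endothelial cells, 76.5 in astrocytes, 72.3 in macrophages and 51.9 in VSMCA. Microglia were highest, with an interval that overlaps that of ependymal cells.

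The small heat shock proteins were highest, among the 8 types, in cells of the vessel wall. Cryab was at 607 CPM (523 to 700) in VSMCA, 284 in pericytes, 76.5 in astrocytes, 52.8 in ependymal cells, 49.3 in endothelial cells, 36.1 in macrophages, 25.6 in microglia and 19.1 in listed neurons. Hspb1 was at 484, 473 and 464 CPM in VSMCA, pericytes and endothelial cells, which counting error does not separate, and between 37.5 and 114 CPM in the other 5 types. The 43 cells labelled Oligodendrocyte, too few for the comparison, had 589 CPM of Cryab and 358 CPM of Hspb1, and fibroblast or leptomeningeal-like cells across libraries had medians of 356 and 483 CPM. Endothelial cells also had the most Dnaja1, 475 CPM (423 to 531), ahead of 323 CPM in ependymal cells, and the most Ppia, 2332 CPM (2215 to 2452), ahead of 1758 CPM in pericytes.

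Since library 7 is 1 library, the same genes were read in classes of cells across libraries. All cells were clustered without using the 33 genes, and clusters were named as like a class from its markers. Clusters with 5 or more markers of a second class were left out as mixed, a rule set after the clusters had been seen. They held 8.62% of all cells and 1.92% to 18.0% per library. Clusters that could not be named were left out as well. These held 10.9%, 10.2% and 11.9% of the cells of libraries 4, 5 and 6 and at most 1.13% elsewhere. There were 8 classes with at least 20000 UMIs in 6 or more libraries. A class is a cluster name and not an identity that was checked by other means.

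The order of classes held for some members in every library that had the class, about as often as for genes in general. Hsp90aa1 in ependymal-like cells was at 3457, 2982, 4599, 2575, 3270 and 3332 CPM in libraries 4 to 9, and the highest of 58 other points of class and library was 973 CPM, in neuron-like cells of library 5. Pdia4 was at 317, 397, 475, 537, 495 and 432 CPM in the same 6, and the highest other point was 316 CPM, in microglia-like cells of library 6. Cryab in VSMCA-like cells was between 488 and 757 CPM in 8 libraries, with 431 CPM, in fibroblast-like cells of library 2, as the highest other point. On all UMIs these were the 3 members whose leading class overlapped no other point, 10.3% of the 29 with a mean of at least 50 CPM over the points, against 16.5% of all 3038 such genes. The margin of Pdia4 is within counting error and depends on the total. Hormone genes took 37.5% of the UMIs of microglia-like cells of library 6 and 2.61% of those of its ependymal-like cells. With hormone genes left out of the total, that microglia-like point would lie within the range of the ependymal-like cells. It would also lie above the ependymal-like cells of library 6.

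A further 7 members were highest in 1 class in every library that held it, though with overlap between libraries. Together with the 3 above these are 10 of 29 members (34.5%), near the 31.1% of all genes. Hsph1 (240 to 372 CPM), Dnajb6 (319 to 589), Ahsa1 (157 to 274), which stimulates the ATPase of HSP90, and Hspe1 (399 to 818) were so in ependymal-like cells. Dnaja1 (315 to 647) was so in endothelial-like cells, and Stip1 (90.1 to 243), which joins HSP70 to HSP90, and Calr (252 to 850) in neuron-like cells. Hspa1a led in no class throughout. Its medians were 103 CPM in macrophage-like cells (51.0 to 192 over 6 libraries), 102 CPM in fibroblast-like cells (0 to 178 over 9) and 33.9 CPM in microglia-like cells. The last were at 241 CPM (209 to 275) in library 7 and between 0 and 77.8 CPM in the other 8 libraries. The microglia-like class joins 3 clusters, and 58.7% of the cells of the cluster led by Ccl4 and Ccl3 came from 1 library. Hspa1a is not given per cluster here.

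**Figure D4:**
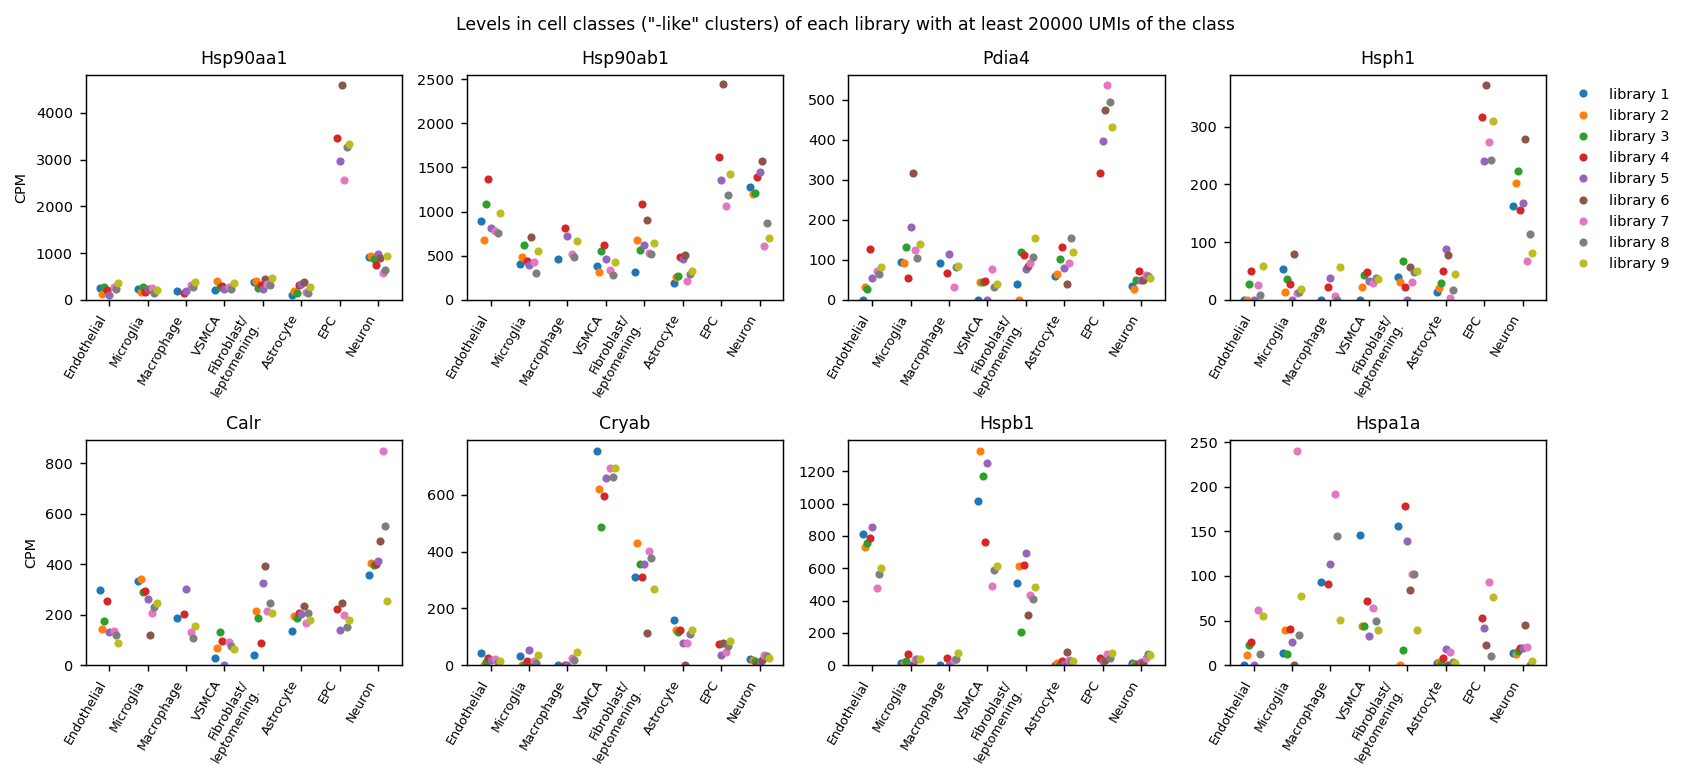
Each point is the level in CPM (y axis, from 0) of 1 gene in 1 class (x axis) of 1 library (colour), for libraries with at least 20000 UMIs of the class. The points of EPC-like cells for Hsp90aa1 (2575 to 4599 CPM) and of VSMCA-like cells for Cryab (488 to 757 CPM) lie above every other class, and within microglia-like cells Hspa1a is highest in library 7, at 241 CPM. The microglia-like class joins 3 clusters that the libraries fill unequally.

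Within a class, libraries can be compared with less of a part played by the mixture of cells. Pituitary hormone genes still took 18.4%, 12.3% and 37.5% of the UMIs of microglia-like cells in libraries 4, 5 and 6. In astrocyte-like cells they took 5.58%, 3.53% and 16.4% there, and in ependymal-like cells 1.29%, 1.21% and 2.61%. Levels within these classes are relative to totals that hold these UMIs. In ependymal-like cells, which had 189465 UMIs or more in each of 6 libraries, 4 of 29 members differed at least 2 times between the highest and lowest library (Hsp90ab1, Cryab, Hspe1 and Cct2), against 24.2% of the genes tested. The count was 9 members against 25.2% on the other total. Hsp90ab1 was at 1615, 1358, 2440, 1062, 1191 and 1420 CPM in libraries 4 to 9, with library 6 highest (2297 to 2589) and library 7 lowest (966 to 1165). Hspe1 followed the same order at both ends, with 818 CPM in library 6 and 399 in library 7. Cct2 ranged from 57.8 CPM in library 8 to 153 CPM in library 4. Hspa1b, under the minimum, had 0 UMIs in library 5 and 122 CPM (103 to 144) in library 9. Taken as 3 counts, a limit tighter than the exact intervals used elsewhere, 0 UMIs in library 5 allow up to 15.7 CPM.

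In neuron-like cells, with 178812 UMIs or more in all 9 libraries, 22 of 27 members differed at least 2 times, against 82.4% of genes tested. Hspa5 in these cells was at 152, 160, 143, 162, 251, 129, 507, 257 and 192 CPM in libraries 1 to 9. Calr was at 357, 406, 396, 401, 411, 492, 850, 552 and 252 CPM. Library 7 was thus highest for both. The class joins 3 clusters that the libraries fill unequally. One led by Nrgn and Slc17a7 held 56.5%, 59.7% and 86.7% of the neuron-like cells of libraries 1, 2 and 3 and at most 2 cells of any other library, and one led by Gad1, Gad2 and Calb2 held 63.7% to 94.5% of those of libraries 4 to 9. Within the second, Hspa5 stood at 641 CPM (519 to 784) in library 7 and 133 to 321 CPM in the other 8 libraries, and Calr at 1073 CPM (913 to 1253) and 332 to 722 CPM. The third, led by mt-Nd1, held 31.7% of the neuron-like cells of library 7 and, on all UMIs, did not have its highest levels there. Hspa5 in it stood at 84.9 CPM (23.1 to 217) in library 7, 97.9 to 230 CPM in libraries 1 to 5 and 0 to 55.9 CPM in libraries 6, 8 and 9, and Calr stood at 149 CPM in library 7, 269 to 400 CPM in libraries 1 to 6 and 99.4 and 37.3 CPM in libraries 8 and 9. Mitochondrial genes took 76.8% of its UMIs in library 7 and 25.2% of those of the cluster led by Gad1. In libraries 1 to 6 they took 4.40% to 18.6% of the UMIs of the cluster led by mt-Nd1. With mitochondrial genes left out of the total, library 7 would instead be highest in that cluster for Hspa5 and Calr, though on few counts. Over the whole class mitochondrial genes took 37.7% of the UMIs of neuron-like cells in library 7 and 4.24% to 25.8% in the other 8. On all UMIs Hspa8 went the other way over the class, with 819 CPM in library 7, the lowest, and 1678 CPM in library 6. In the cluster led by Gad1 its values in these libraries were 1012 and 1748 CPM, and in the one led by mt-Nd1 they were 212 and 498 CPM. These levels are relative to all UMIs. With mitochondrial genes left out of the total, library 7 would be above library 6 in the cluster led by mt-Nd1.

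The other 6 classes had as few as 21585 to 30380 UMIs in the library with the fewest, so that many of their ratios rest on few counts. The count was 18 of 23 members in astrocyte-like cells (78.8% of genes tested), 21 of 26 in endothelial-like cells (76.7%), 28 of 30 in fibroblast or leptomeningeal-like cells (91.4%), 16 of 24 in macrophage-like cells (82.9%), 18 of 24 in microglia-like cells (89.5%) and 19 of 25 in VSMCA-like cells (81.1%). In every class the count of members is thus near the share of all genes or below it.

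Hspa1a and Hspa1b lie 9951 bases apart on chromosome 17, and 247 of the 250 bases before their starts are the same. Their annotated transcripts match at 94.2% of 2713 aligned bases, but none of the 441 windows of 60 bases in the last 500 bases of one occurs in the other, so reads from the 3' end can tell them apart where these annotated ends are used. How the counting treated reads of the shared part is not given in the sources used here, so the split stays uncertain. The ratio of Hspa1a to Hspa1b UMIs was 2.50, 2.10, 1.30, 4.14, 8.05, 2.26, 2.64, 2.09 and 1.01 in libraries 1 to 9. Library 5 (5.04 to 13.5) and library 9 (0.842 to 1.22) were furthest apart, with intervals that do not overlap. In ependymal-like cells of library 9 Hspa1b exceeded Hspa1a, at 137 against 86 UMIs, and in microglia-like cells of library 7 the order was the reverse, at 75 against 212 UMIs. A UMI of Hspa1a was seen in 1039 of 29571 cells and one of Hspa1b in 583, and 28 cells with at least 5 UMIs of the pair held 8.87% of all of them. At this depth a cell without a UMI may still express the gene, and the share of these UMIs from background RNA is not given here.

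Other genes of the pathway were counted over the 9 libraries in the same way, to be read against the same 65.3%. Of 14 other cytosolic chaperones and cochaperones with at least 50 CPM, 6 differed at least 2 times, the widest being Hspa2 (59.0 to 209 CPM), Fkbp5 (30.8 to 93.6 CPM) and Hspa4 (31.1 to 94.1 CPM). None of 7 other TRiC and prefoldin genes did, and neither of 2 other mitochondrial chaperones. Of 8 other ER folding genes 5 did, led by the collagen chaperone Serpinh1 (44.1 to 141 CPM), Sdf2l1 (27.4 to 94.0 CPM) and P4hb (44.9 to 131 CPM). The heat shock factors Hsf1 and Hsf2 were under the minimum. In ependymal cells of library 7, where 8.62% of all genes were counted as higher, so were 3 of 9 other cytosolic genes, Hspa2, Dnajc7 and Ptges3, the last a cochaperone of HSP90. The count was 0 of 6 for TRiC and prefoldin, 1 of 9 for ER folding (Dnajc3) and 0 of 2 for mitochondrial chaperones. Hspa2 was also counted in pericytes.

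The genes most like the summed Hspa1a and Hspa1b over 64 points of class and library, by Pearson's r of log2(CPM + 10), were H3f3b (0.62), Cebpb (0.62), Rpl10-ps3 (0.62), Sec61g (0.61) and Rps26-ps1 (0.60) among 3038 genes. The points share libraries and differ in depth, so r is a description only. Among the other members with a value, which leaves out Bag3 and Chordc1, Dnajb1 had the highest r, 0.37.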

How the data were processed

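The authors deposited 1 table of whole-number UMI counts, made with Cell Ranger 2.2.0 on GRCm38 per the submitters' processing notes and labels, with 3′ libraries from a 10x Chromium version 2 kit. The gene annotation release is not given in the sources used here. No filter was added to cells, and doublets were not removed. Counts were summed per library, listed type or class and given as CPM. Intervals are exact 95% Poisson or binomial ones and cover counting error only. A ratio was counted at 2 or more after adding 10 CPM, among genes with at least 50 CPM. Since 8 of the 9 libraries could not be assigned to a region and sleep group, no test between groups was made.

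Cells were scaled to 10000 UMIs and clustered on 2000 variable genes without the 33, with 13 principal components, 20 neighbours and Leiden resolution 1 (30 clusters). A cluster was named from at least 3 markers of a class at 2 times the other cells and in 10% of its cells. Values in every library were printed for members past a ratio of 2 and for the most abundant member of each system, and values in every type for the 10 with the largest ratio to the other listed cells. Hspa1a, Hspa1b and others outside this rule were added after their values were seen. The members and lists were chosen with earlier results of these data known. Gene positions are from GENCODE vM21. Clustering used leidenalg 0.10.2, igraph 0.11.9 and scikit-learn 1.9.0, intervals used scipy 1.17.1, and tables were handled with pandas 2.3.3 in Python 3.11.15. The calls were tested on simulated counts with counting error and added changes. Those counts held no difference in cell mixture between libraries, so that test does not bear on it.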

Additional observations from a re-analysis of the deposited data

How the results depend on the processing

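No paired analysis was possible because 8 of the 9 libraries could not be assigned to a region and sleep group. The share of UMIs of the 33 genes ran from 0.784% to 1.06% without mitochondrial, hemoglobin and hormone genes in the total, from 0.541% to 1.02% in cells with at least 1000 UMIs and from 0.612% to 0.778% as a mean over cells. Of 29 members tested, 8 had a ratio of 2 over libraries, and 20 reached a ratio of 1.5 (90.7% of all genes). The count at a ratio of 2 was 20 in cells with at least 1000 UMIs (82.8%) and 5 among genes of at least 100 CPM (68.0%). The number of members tested can change with the total and with the UMI and CPM limits, and it is not given for those settings. Such counts are thus not to be read as above or below the share of all genes. In listed types the count of 14 in any type was 22 at a ratio of 1.5, with 55.3% and 84.8% of all genes counted in any type. Within classes, genes of at least 100 CPM gave 10 members in astrocyte-like (71.5% of all genes), 12 in endothelial-like (65.0%), 16 in fibroblast or leptomeningeal-like (83.3%), 10 in macrophage-like (73.4%), 10 in microglia-like (82.4%) and 9 in VSMCA-like cells (69.0%), since fewer genes enter. The count of 4 in ependymal-like cells was 9 with the other total (25.2% of all genes), 7 in cells with at least 1000 UMIs (31.8%), 9 with 1 CPM added (32.5%) and 24 at a ratio of 1.5 (69.6%). Astrocyte-like cells gave 11 (58.2%) in libraries with at least 100000 UMIs of the class, an alternative chosen after seeing the data, as was leaving out a class. For endothelial-, fibroblast-, macrophage-, microglia- and VSMCA-like cells the settings of 1000 and 100000 UMIs were not run, since too few libraries were left. The cause of the other changes was not tested. Depth limits the low genes most, Hspa1b and Bag3 among them.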

Other observations

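Libraries 4, 5 and 6 held pituitary endocrine-like cells, whose UMIs were 46.0%, 56.4% and 51.0% hormone transcripts. The 33 folding genes summed to 4555, 4323 and 4475 CPM in these cells and to 8642, 8609 and 10145 CPM in the other cells of the same libraries. With the hormone genes left out of the total the sums were 8438, 9922 and 9139 CPM against 9366, 9056 and 11371 CPM, so that library 5 turned the other way. The 8 ER folding genes, without hormone genes in the total, stood at 2516, 2573 and 2470 CPM in the endocrine-like cells and at 1885, 1878 and 2015 CPM in the other cells. On all UMIs the order was the reverse in 3 of 3 libraries, with 1358, 1121 and 1209 CPM in the endocrine-like cells and 1740, 1785 and 1798 CPM in the others, so the direction depends on the total. Cryab was at 5.13, 1.93 and 4.32 CPM in the endocrine-like cells against 103, 78.1 and 85.5 CPM in the others, and Ppib at 36.7, 34.8 and 41.1 CPM against 212, 201 and 193 CPM, on all UMIs. The libraries are not assigned to a region or sleep group here, and no test was made.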
